A study of Mus musculus with 6 samples.

Results

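Complex I (NADH:ubiquinone oxidoreductase) is the entry point of the respiratory chain, and its genes were followed here as 53 protein-coding genes of the 54838 in the deposited table, those whose symbol begins with Nduf or mt-Nd. They comprise 45 genes named as subunits, of which 38 are nuclear and 7 are mitochondrial, and 8 assembly factors of the Ndufaf series. After a filter on low counts, 52 of the 53 and 13629 genes in all were tested, and the gene that did not pass was Ndufa4l2.

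Bulk RNA sequencing compared mouse B16F10 melanoma cells given fenofibrate at 50 µM (n = 3 libraries) with control cells (n = 3), after enrichment for mRNA. Fenofibrate belongs to the fibrates, drugs that lower blood lipids, and is turned in the body into a compound that activates the nuclear receptor PPARα. The labels call the libraries biological triplicates and give neither the vehicle of the control nor the length of treatment. The cell line field reads B16F10 for the first library and a different name, up to B16F15, for each of the others. Groups were therefore taken from the titles, and if that field is meant as written, line and treatment cannot be told apart. Where the libraries did not come from separate cultures, the p-values measure only the spread between these samples, which may be technical.

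The enzyme has an L shape. Its matrix arm takes electrons from NADH through a flavin and a chain of iron-sulphur clusters to ubiquinone, and its membrane arm pumps protons. The core subunits of the matrix arm and all accessory subunits are encoded in the nucleus, while the core of the membrane arm is encoded in the mitochondrial genome, which is transcribed as long RNAs from each strand that are then cut, mostly at the tRNAs that lie between the mRNAs. Assembly factors build the arms in separate modules and are not part of the finished enzyme.

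Each library held from 13540038 to 14710856 counts, and mitochondrially encoded genes took 6.23% ± 0.395 of them in the control libraries and 6.52% ± 0.0850 in the treated ones (SD, n = 3 each). Of 7 melanocyte markers, all were expressed and 5 were called higher with fenofibrate, where 19.5% of all genes tested were. Their summed level ranged from 20917 to 22127 normalised CPM (counts relative to the scaled library total) in control and from 26493 to 28170.3 in fenofibrate. The summed levels of 5 fibroblast markers (1.26 to 2.54 in control and 0.354 to 0.604 in fenofibrate), 5 macrophage markers (1.89 to 3.28 and 3.90 to 6.72, with 2 of the 5 at 0 in every library), 6 lymphocyte markers (at most 0.453), 4 endothelial markers (at most 0.653, with 3 of the 4 at 0) and 5 epithelial markers (at most 2.26) were low in all libraries. Among the macrophage markers only Cd68 passed the filter on low counts, and it was called higher (1.90-fold) although its groups overlapped. The part of the rise in melanocyte markers in the results that follow was not tested. In bulk RNA, fewer cells of a type and less RNA per cell cannot be told apart.

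With fenofibrate, 23 of the 52 complex I genes tested were called higher and 2 were called lower, by edgeR's quasi-likelihood test with a threshold of 0.05 on the p-value adjusted after Benjamini and Hochberg. Of all genes tested 39.1% were called, 19.5% higher and 19.5% lower. The remaining 27 complex I genes were not called. The changes were small. The median log2 fold change over the 52 was 0.18 (1.13-fold) against -0.0021 over all genes. Of the 25 called complex I genes, 0 reached 2-fold, which 758 of the 5326 genes called in all did. The value was positive for 44 of the 52. All 3 fenofibrate libraries lay above all 3 control libraries for 25 of them and below for 2, where 26.4% and 26.9% of all tested genes did so. With libraries scaled by their totals, 17 were called higher and 2 lower with a median of 0.12. Over all genes 40.1% were then called and the median was -0.057. Of those calls 39.9% were higher, against 50.0% in the main fit. Without control replicate 1, 15 of 53 tested were called higher and 1 lower, where 30.7% of all genes tested were called.

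**Figure D1:**
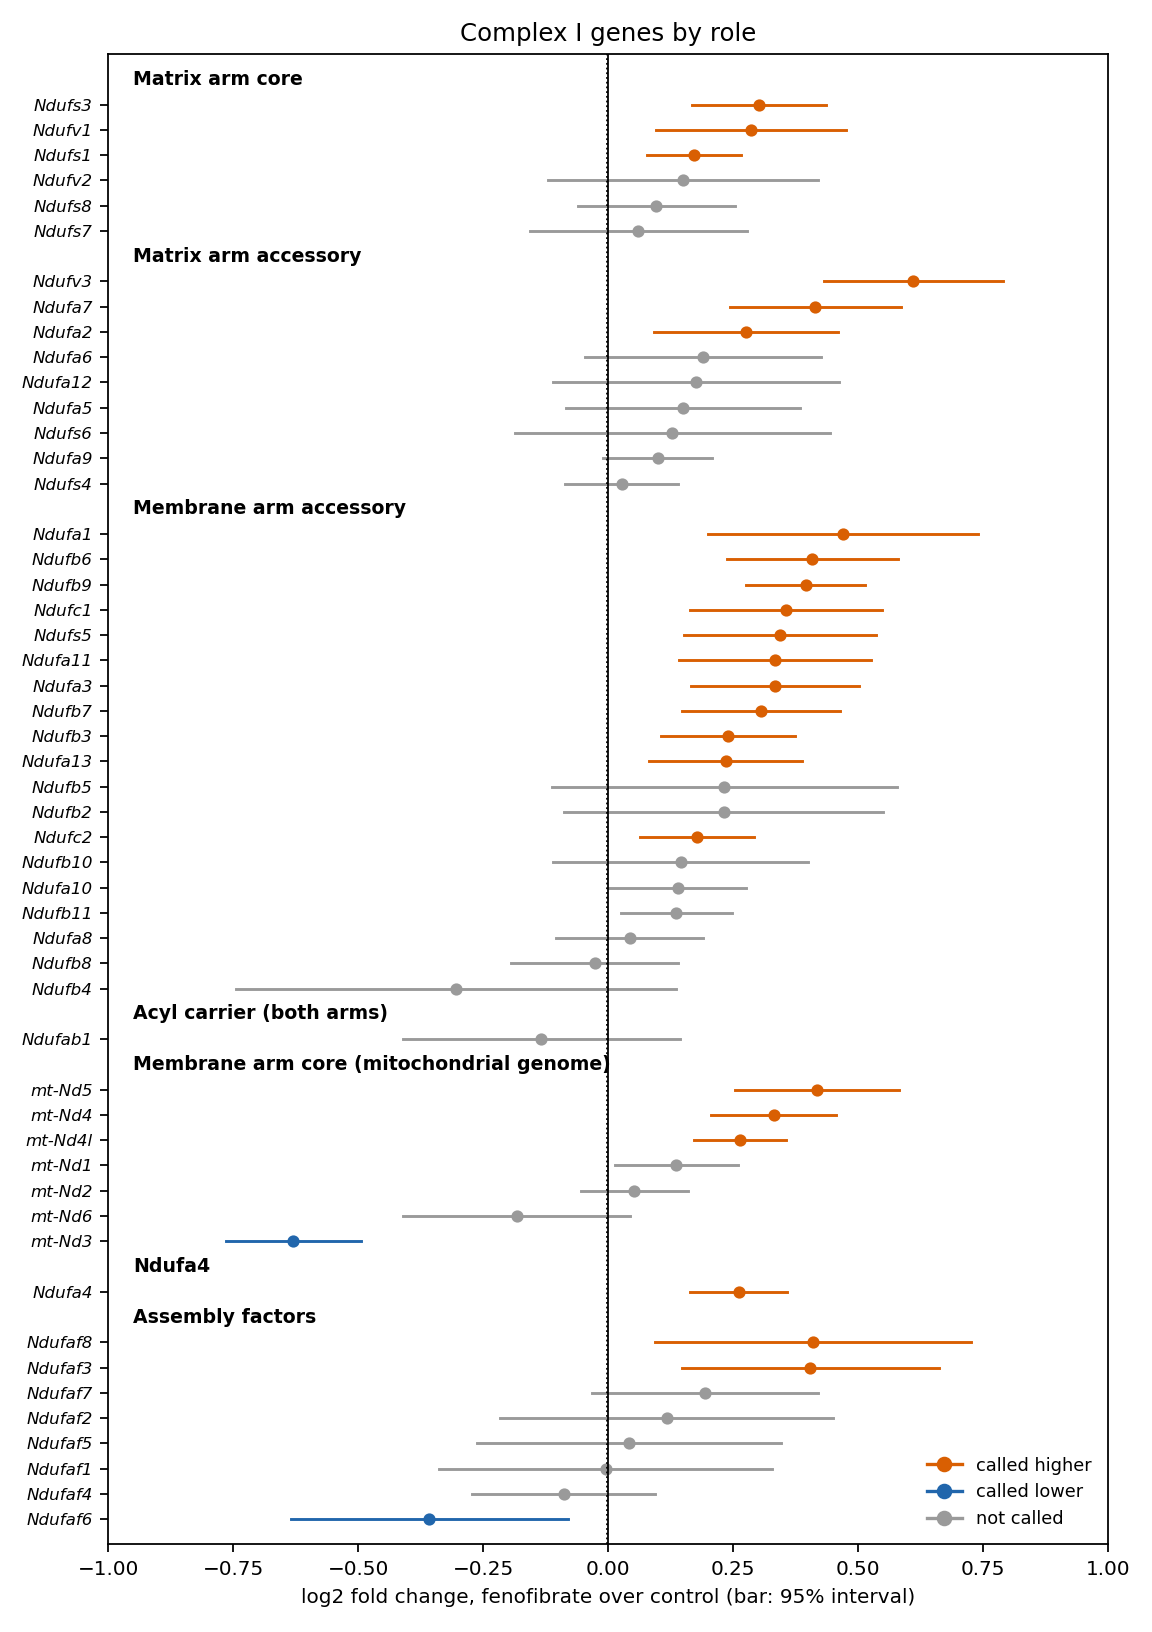
Log2 fold change of the complex I genes described here, fenofibrate over control, with its 95% interval (n = 3 libraries each), grouped by role. Orange genes were called higher, blue genes lower and grey genes were not called, and the dotted line beside 0 is the median of all genes tested (-0.0021). Most points lie to the right of 0, none of the nuclear subunits is blue, and mt-Nd3 lies farthest to the left.

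Subunits and assembly factors were then set side by side. Among subunits, 21 of the 44 tested were called higher and 1 lower, with a median log2 fold change of 0.18. Among the 8 assembly factors, 2 were called higher and 1 lower, with a median of 0.079, so 37.5% were called against 39.1% of all genes. Nuclear subunits gave 18 higher and 0 lower of 37 tested (median 0.19), and mitochondrial subunits 3 higher and 1 lower of 7 (median 0.14). Without Ndufa4 and Ndufa4l2, which have Nduf names while Ndufa4 has been assigned to cytochrome c oxidase, the nuclear subunits gave 17 higher and 0 lower of 36. The medians of all these groups were positive under each scaling tried, and the lowest was 0.011 for the assembly factors on the FPKM scale. Whether subunits and assembly factors differ in how they changed was not tested.

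Summed over the 38 nuclear subunits, the level was 2433, 2441 and 2508 normalised CPM in control and 2889, 2824 and 2762 in fenofibrate, a ratio of means of 1.15. The 7 mitochondrial subunits summed to 15308, 16380.1 and 17730.4 in control and 19273, 19530.2 and 18977 in fenofibrate, a ratio of 1.17 (1.09 on the FPKM scale and 1.13 with library totals). The 8 assembly factors summed to 145, 150.0 and 149 in control and 159.6, 158 and 159 in fenofibrate, a ratio of 1.07. In each of the 3 sums the groups did not overlap. The level of the mitochondrial subunits relative to the nuclear ones was 6.69 ± 0.389 in control and 6.82 ± 0.131 in fenofibrate (SD, n = 3 each), and these groups overlapped.

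Per kilobase of the principal transcript, the mitochondrial subunits ranged from 226 (mt-Nd6) to 3815 (mt-Nd1) normalised CPM in control. The nuclear subunits that were tested ranged from 4.12 (Ndufb4) to 405 (Ndufa4), with a median over these 37 of 52.7 in control and 68.7 in fenofibrate. Ndufb4 is a membrane arm subunit whose processed pseudogene Ndufb4c is near-identical and held 5.90 ± 0.205 normalised CPM in control, more than the 3.996 ± 0.451 of Ndufb4 itself, so the split of reads between them is uncertain. Besides Ndufa4, the nuclear subunits above 100 per kilobase in control were Ndufb9, Ndufb3, Ndufb8 and Ndufc2, all accessory subunits of the membrane arm. The order depends on the length used. In the deposited FPKM of the control libraries, Ndufb3 was at 113, 111 and 124, above Ndufa4 at 93.5, 91.8 and 96.5. Ndufb8 was at only 15.9, 15.5 and 16.4. The assembly factors ranged from 5.73 (Ndufaf4) to 34.7 (Ndufaf2), with a median of 15.6 in control and 16.6 in fenofibrate.

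**Figure D2:**
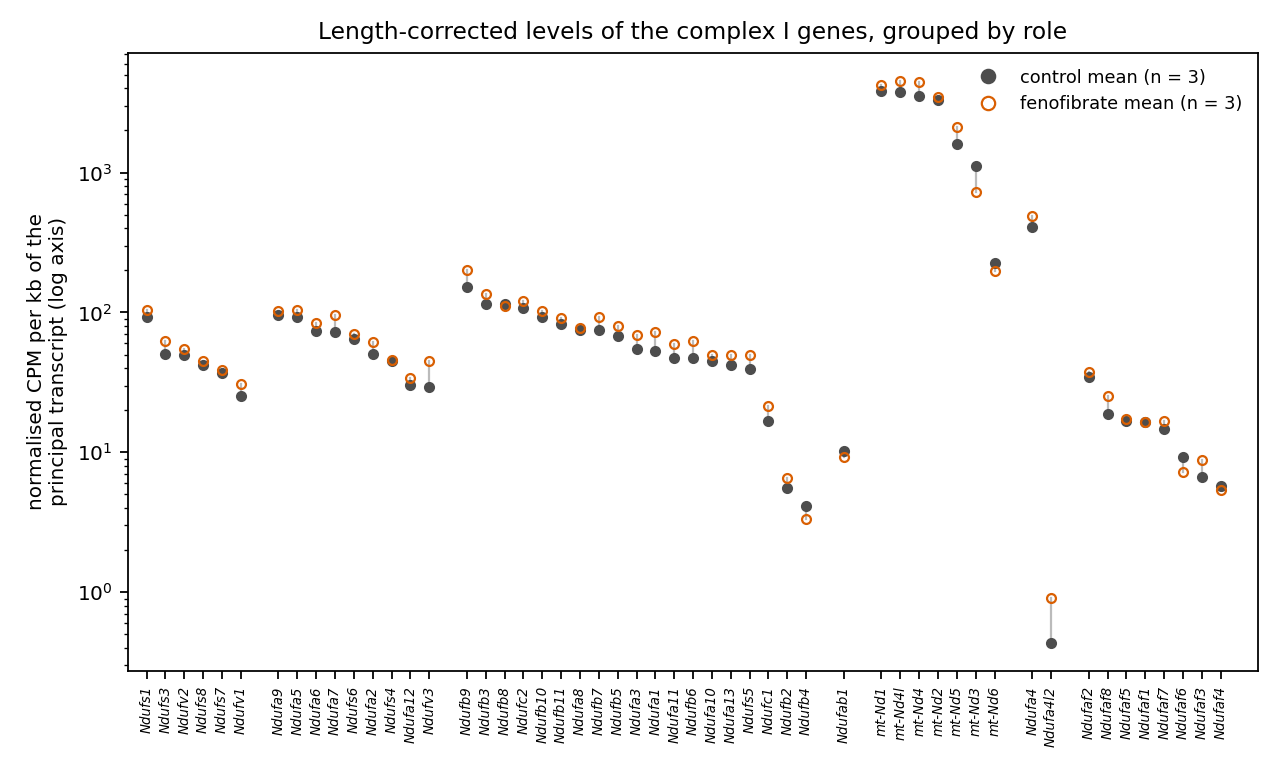
Mean normalised CPM per kilobase of the principal transcript (log axis) for the complex I genes described here in control (filled) and fenofibrate (open), n = 3 libraries each, grouped by role and ordered by the control level. The mitochondrial subunits lie from 226 to 3815 in control, and the assembly factors from 5.73 to 34.7.

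Of the mitochondrial genes, mt-Nd3 was called lower and mt-Nd4l, mt-Nd4 and mt-Nd5 were called higher, while mt-Nd1, mt-Nd2 and mt-Nd6 were not called. Mt-Nd3 encodes a short core subunit at the junction of the arms, part of which lies next to the ubiquinone site. Its gene, ENSMUSG00000064360, runs from 9459 to 9806 on the plus strand of the mitochondrial genome (GRCm38), as 1 exon. Its first and last 60 bases are shown because it is the only subunit gene called lower. They are taken from the GENCODE M21 transcript, and capitals mark the start codon ATT, one of those that mitochondria use beside ATG, and the stop codon TAA.
mt-Nd3 first 60 bases: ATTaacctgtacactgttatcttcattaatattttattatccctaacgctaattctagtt
mt-Nd3 last 60 bases: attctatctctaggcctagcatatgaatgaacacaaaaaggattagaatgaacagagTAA

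The counts of mt-Nd3 were 4992, 5662 and 5751 in control and 3450, 3553 and 3528 in fenofibrate. In normalised CPM these were 359.6, 395 and 417 in control and 260.5, 252 and 245 in fenofibrate, so the groups did not overlap. The gene fell 1.55-fold (log2 fold change -0.63 ± 0.06 SE, adjusted p = 0.000202, edgeR's quasi-likelihood test), and it was called under each of the 16 alternatives tried. It took 0.648% ± 0.0158 of the counts of the 13 mitochondrial protein-coding genes in control and 0.384% ± 0.00790 in fenofibrate (n = 3 each).

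The neighbours of mt-Nd3 moved in different directions. Directly before it, with only the tRNA gene mt-Tg between them, lies mt-Co3, a core subunit of cytochrome c oxidase. Mt-Co3 went from 4550.4, 4716 and 5056 normalised CPM to 3879, 3964 and 3824 and was called lower (log2 fold change -0.30 ± 0.04, adjusted p = 0.0014). Directly after mt-Nd3, with only the tRNA gene mt-Tr between them, lies mt-Nd4l, a small core subunit of the membrane arm, which went from 1071, 1142 and 1155 to 1322, 1332 and 1390.3 and was called higher (0.26 ± 0.04, adjusted p = 0.00178). The ratio of mt-Nd3 to mt-Nd4l counts was 0.336, 0.346 and 0.361 in control and 0.197, 0.189 and 0.176 in fenofibrate. This ratio does not depend on the scaling between libraries. It adds no separate evidence, since the groups of both genes were already apart in opposite directions. The ratio of mt-Nd3 to mt-Co3 counts was 0.0818 ± 0.00243 in control and 0.0649 ± 0.00198 in fenofibrate (SD, n = 3 each).

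Mt-Nd4, a proton-pumping core subunit, directly follows mt-Nd4l with no tRNA gene between them, so their calls may not stand for separate RNAs. The genes share 7 bases. These bases are shown because reads there can belong to either gene. In the sequences (GENCODE M21 transcripts, mitochondrial genome, GRCm38) capitals mark the shared bases, which hold the start codon of mt-Nd4 and the stop codon of mt-Nd4l.
mt-Nd4l last 40 bases, 10134 to 10173: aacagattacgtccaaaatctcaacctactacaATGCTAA
mt-Nd4 first 40 bases, 10167 to 10206: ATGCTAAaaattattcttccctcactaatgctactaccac

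The level of mt-Nd4 was 4497, 4819.9 and 5239 normalised CPM in control and 6018, 6247 and 6047 in fenofibrate, and it rose 1.26-fold (log2 fold change 0.33 ± 0.05, adjusted p = 0.00247). Next in order is mt-Nd5, the proton-pumping core subunit at the far end of the membrane arm. It went from 2671, 2793 and 3227 to 3826, 4066 and 3722 and rose 1.34-fold (0.42 ± 0.07, adjusted p = 0.0030), the largest rise among the mitochondrial subunits. In both genes the groups did not overlap. On the FPKM scale with no filter on low values, mt-Nd4 and mt-Nd4l were no longer called (adjusted p = 0.0534 and 0.0734, limma).

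Mt-Nd1, which forms part of the ubiquinone channel at the heel of the enzyme, was at 3387, 3653 and 3913 normalised CPM in control and 4147, 3968 and 3924 in fenofibrate. Its groups did not overlap, but it was not called (log2 fold change 0.14 ± 0.05, adjusted p = 0.0784). Without control replicate 3 it was called (0.19, adjusted p = 0.0207). The level of mt-Nd2, a proton-pumping subunit like mt-Nd4 and mt-Nd5, was 3215, 3464 and 3649 in control and 3595, 3575 and 3537 in fenofibrate, with overlapping groups (0.052 ± 0.05, adjusted p = 0.404), and its sign was reversed with library totals and on the FPKM scale. Mt-Nd6 is the only mRNA of the opposite strand. It was at 106.5, 114 and 131 in control and 106, 92.0 and 112 in fenofibrate, with overlapping groups (-0.18 ± 0.10, adjusted p = 0.176). The genes mt-Nd5 (11742 to 13565) and mt-Nd6 (13552 to 14070) overlap at their ends on opposite strands, and the strand setting of the counting is not given in the sources used here.

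Of the 6 other mitochondrial protein-coding genes, 1 was called higher and 1 lower (33.3% called against 39.1% of all genes). The one called higher was mt-Co1, a core subunit of cytochrome c oxidase, which went from 11386.5, 11124.5 and 12633 normalised CPM to 15285, 15049.8 and 14114 (log2 fold change 0.34 ± 0.05, adjusted p = 0.00227). The genes mt-Co2, mt-Atp8, mt-Atp6 and mt-Cytb were not called. The 7 mt-Nd genes took 27.0%, 27.6% and 27.4% of all counts of mitochondrial protein-coding genes in control. In fenofibrate they took 29.1%, 29.5% and 29.3%, and these groups did not overlap.

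**Figure D3:**
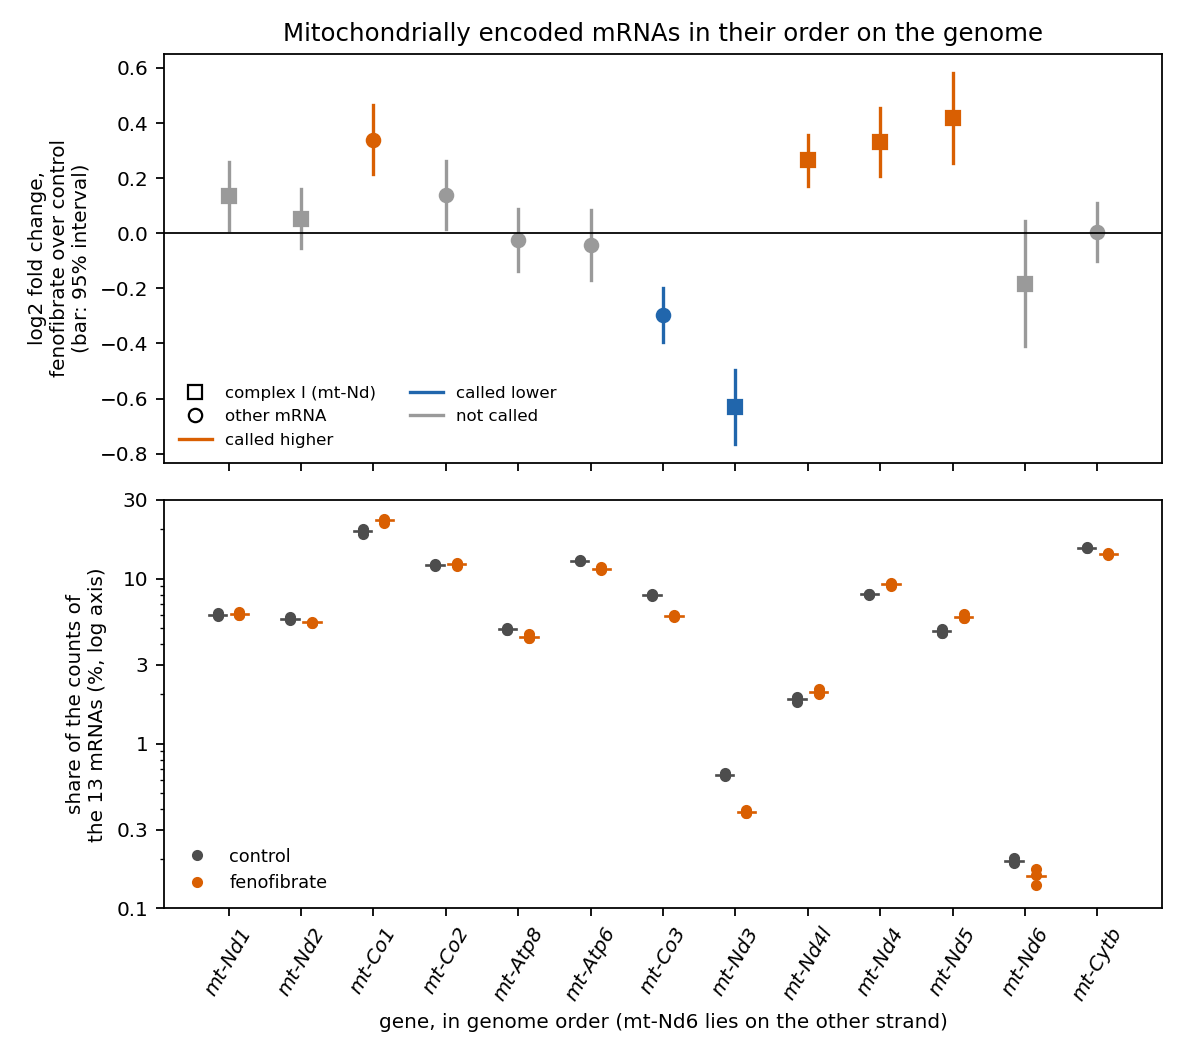
The 13 mitochondrial protein-coding genes in their order on the genome. The upper panel shows the log2 fold change, fenofibrate over control, with its 95% interval. The lower panel shows each gene's share of the counts of the 13 genes in every library (log axis, n = 3 each). Points are libraries and lines are means. Mt-Co3 and mt-Nd3, which are adjacent, were called lower, and the run from mt-Nd4l to mt-Nd5 was called higher.

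Copies of this stretch of the mitochondrial genome lie on chromosome 1 as pseudogenes. Gm28438 is near-identical to mt-Nd3, Gm10222 to mt-Nd4l and Gm28439 to mt-Nd4. Over the libraries they held from 8.75% to 11.6%, from 11.5% to 14.8% and from 6.51% to 7.98% of the level of their mitochondrial gene. Gm28438 was called lower, and Gm10222 and Gm28439 were called higher, the same directions as the genes they copy. With the copy added, mt-Nd3 went from 426 ± 32.3 to 279 ± 6.95 normalised CPM, mt-Nd4l from 1262 ± 58.5 to 1541 ± 34.8, and mt-Nd4 from 5182 ± 403 to 6580.3 ± 123 (SD, n = 3 each). Reads shared between the gene and its copy cannot be assigned from these counts.

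Among the 7 core subunits of the matrix arm, 3 were called higher and 0 lower (42.9% called against 39.1% of all genes), with a median log2 fold change of 0.15, and the value was positive for all 7. Ndufs3, a subunit of the module that passes electrons to ubiquinone, was at 52.1, 53.9 and 52.4 normalised CPM in control and 67.7, 61.6 and 65.9 in fenofibrate. Its groups did not overlap, and it rose 1.23-fold (0.30 ± 0.06, adjusted p = 0.00512). Its gene, ENSMUSG00000005510, lies on chromosome 2 from 90894634 to 90904827 (GRCm38), and the principal transcript has 7 exons. Ndufs3 also has a near-identical pseudogene, Gm12251, that was not called, and its exons overlap those of Kbtbd4 on the opposite strand.

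Ndufv1, which binds NADH and the flavin, was at 45.0, 43.2 and 36.8 in control and 50.8, 51.6 and 50.2 in fenofibrate (1.22-fold, 0.29 ± 0.08, adjusted p = 0.0267). Control replicate 3 was the lowest, and the groups did not overlap. This call was lost under 10 of the 16 alternatives, library totals among them. Ndufs1, the largest core subunit and a carrier of iron-sulphur clusters, was the most even in control, at 248, 248 and 246, against 267, 289 and 281 in fenofibrate (1.13-fold, 0.17 ± 0.04, adjusted p = 0.0124), and its call was lost under 5 alternatives, those on the FPKM scale and library totals. Ndufv2, Ndufs7 and Ndufs8, which carry iron-sulphur clusters, were not called, with log2 fold changes from 0.060 (Ndufs7) to 0.15 (Ndufv2).

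Of the 9 accessory subunits of the matrix arm, 3 were called higher and 0 lower (median 0.18, 33.3% called against 39.1% of all genes). The largest rise of any complex I gene was that of Ndufv3, a small subunit of the NADH-oxidising tip, encoded by ENSMUSG00000024038 on chromosome 17 from 31520115 to 31531326 (GRCm38), with 4 exons in the principal transcript. It was at 47.3, 43.0 and 49.8 normalised CPM in control and 75.4, 72.1 and 66.2 in fenofibrate. The lowest fenofibrate library lay well above the highest control library, and the gene rose 1.53-fold (0.61 ± 0.08, adjusted p = 0.000809). It was called under all 16 alternatives, and its log2 fold change ranged over them from 0.53 to 0.66.

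Ndufa7, also a matrix arm subunit, was at 38.5, 35.1 and 40.5 in control and 52.3, 51.9 and 47.9 in fenofibrate, with no overlap, and rose 1.33-fold (0.41 ± 0.07, adjusted p = 0.00375). Ndufa2, which has a thioredoxin-like fold, was at 28.7, 29.6 and 28.9 in control and 38.6, 34.4 and 32.6 in fenofibrate (1.21-fold, 0.28 ± 0.08, adjusted p = 0.0277). Its groups did not overlap, its call was lost under 10 alternatives, and its exons overlap those of Tmco6 on the opposite strand. The 6 others had positive values from 0.027 to 0.19 and were not called. They include Ndufs4, loss of which causes a Leigh-like encephalopathy in mice, with 73.9, 76.7 and 78.3 in control and 77.5, 78.7 and 77.1 in fenofibrate. Its interval ran from -0.09 to 0.14 on the log2 scale, and the sign of its value was reversed with library totals and on the FPKM scale. The rest were Ndufa9, a subunit that binds NADPH, the zinc-binding Ndufs6, Ndufa6, which anchors an acyl carrier protein, Ndufa5 and Ndufa12.

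Of the 19 accessory subunits of the membrane arm, 11 were called higher and 0 lower (median 0.23, 57.9% called against 39.1% of all genes). The largest value was that of Ndufa1, a small X-linked subunit needed for assembly, at 20.4, 20.1 and 25.8 normalised CPM in control and 33.2, 29.6 and 29.0 in fenofibrate. Control replicate 3 was the highest control, and the groups did not overlap. Ndufa1 rose 1.38-fold (0.47 ± 0.12, adjusted p = 0.0153), and the call was lost when control replicate 1, control replicate 2 or fenofibrate replicate 1 was left out, with adjusted p values up to 0.0548. It is encoded by ENSMUSG00000016427 on chromosome X from 37187588 to 37191163, with 3 exons.

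Ndufb9, which like Ndufa6 binds an acyl carrier protein, had tighter libraries. It was at 107, 104.5 and 111 in control and 143, 147 and 134 in fenofibrate and rose 1.32-fold (0.40 ± 0.05, adjusted p = 0.000916). Its gene, ENSMUSG00000022354, lies on chromosome 15 from 58933756 to 58939488 and overlaps Gm49356 on the same strand. Ndufb6 was at 33.2, 29.4 and 29.95 in control and 39.5, 43.0 and 40.4 in fenofibrate and rose 1.33-fold (0.41 ± 0.07, adjusted p = 0.00398). Ndufc1 was at 21.2, 21.5 and 20.2 in control and 24.7, 28.7 and 27.1 in fenofibrate and rose 1.28-fold (0.36 ± 0.08, adjusted p = 0.0118). In these 3 genes the groups did not overlap, and the calls held under all 16 alternatives.

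The other 7 called higher were Ndufs5 and Ndufb7, which have the cysteine pairs typical of proteins folded in the intermembrane space, Ndufa11, Ndufa3, Ndufb3, Ndufa13 (also known as GRIM-19) and Ndufc2. Their changes ran from 1.13-fold (Ndufc2) to 1.27-fold (Ndufs5), and in each the groups did not overlap. Ndufa13 and Ndufc2 each lost the call under 6 alternatives, and Ndufa11 and Ndufb3 without control replicate 1. Ndufb11 and Ndufa10 also had groups that did not overlap, at 74.4, 73.5 and 77.0 against 83.6, 81.0 and 82.4 for Ndufb11, but were not called (adjusted p = 0.056 and 0.0994).

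Of the other uncalled genes of this arm, Ndufb5 and Ndufb2 had values as large as some called genes, with wider spread. Ndufb5 was at 67.9, 67.2 and 85.1 in control and 106, 77.8 and 75.3 in fenofibrate (0.23 ± 0.15). Ndufb10 (0.14) and Ndufa8 (0.043, reversed with library totals and on the FPKM scale) were likewise not called. The only negative values here were those of Ndufb8 (-0.027 ± 0.07) and of Ndufb4 (-0.30 ± 0.19), neither called. The near-identical Ndufb4c had a positive value (0.32, not called), and the sum of Ndufb4 and Ndufb4c went from 9.90 ± 0.544 to 10.6 ± 1.15 normalised CPM (SD, n = 3 each), so the direction of Ndufb4 is uncertain. Ndufb8, with 76.9, 75.2 and 80.4 in control and 80.0, 79.5 and 68.7 in fenofibrate, is an antibody target often used as a readout of complex I content.

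Ndufab1 is the acyl carrier protein itself, which sits in both arms and also serves mitochondrial fatty acid synthesis. It was at 32.7, 35.8 and 38.3 normalised CPM in control and 30.05, 29.0 and 38.3 in fenofibrate, with overlapping groups (-0.13 ± 0.12, adjusted p = 0.408). Its near-identical pseudogene Ndufab1-ps held more, at 42.1 ± 1.12 in control and 47.7 ± 2.64 in fenofibrate, and was not called (adjusted p = 0.0568). Another near-identical copy, Gm4459, held 20.4 ± 0.941 and 19.7 ± 0.401 and was not called either, so the value of Ndufab1 alone is uncertain. The sum of all 3 was 98.1 ± 4.85 in control and 99.8 ± 6.25 in fenofibrate (SD, n = 3 each).

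**Figure D4:**
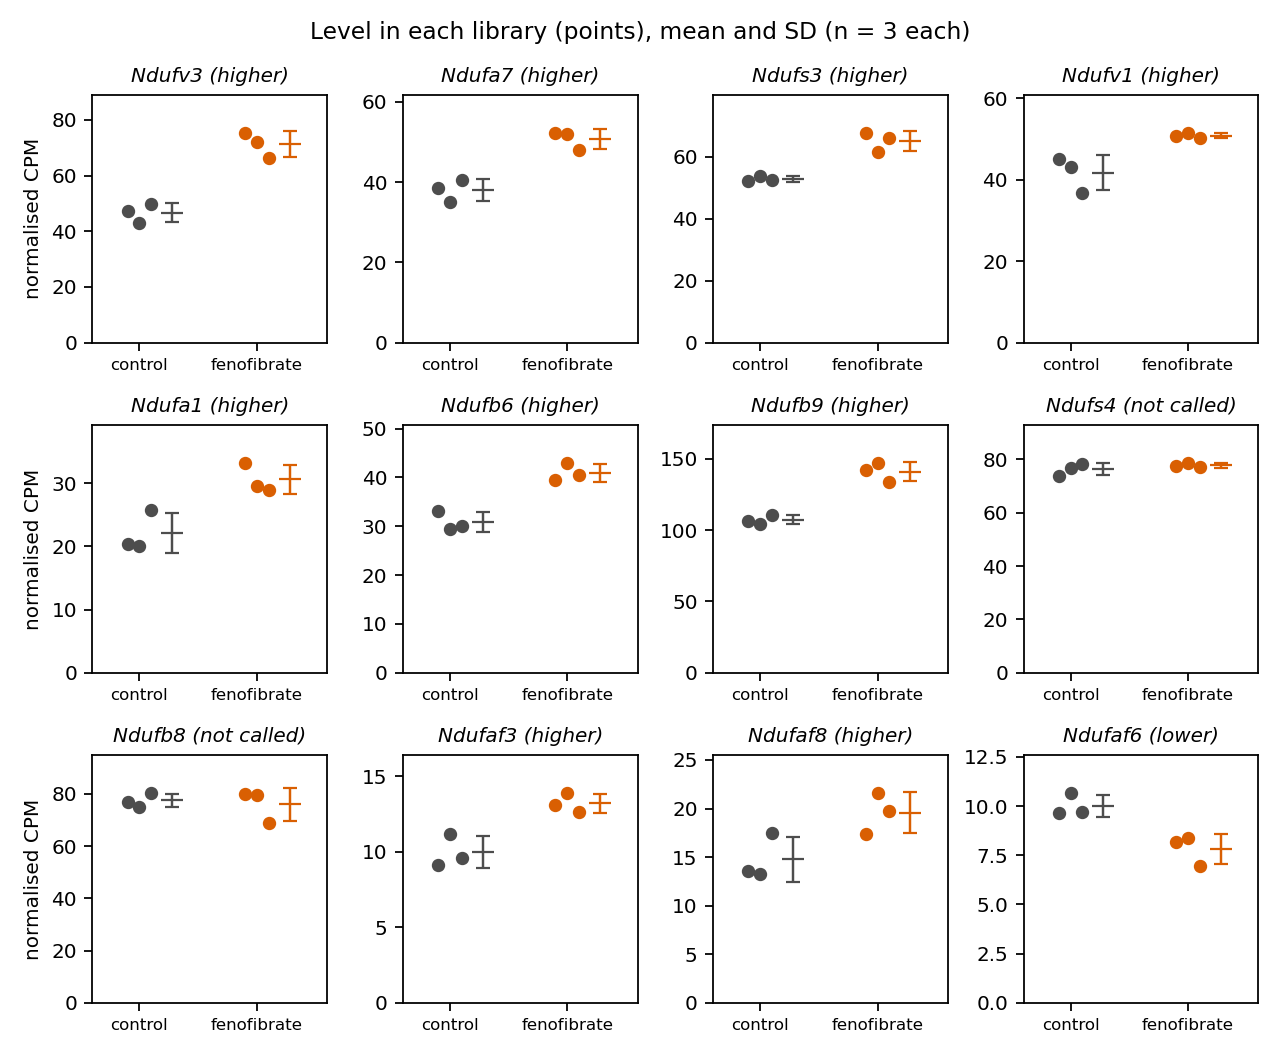
Normalised CPM in each library (points) with mean and SD (n = 3 each) for 12 nuclear complex I genes, each panel starting at 0. The groups are apart for the 7 subunits called higher shown here, and they overlap for Ndufs4, Ndufb8 and Ndufaf8.

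Ndufa4 had the highest level of the nuclear genes per kilobase of the principal transcript, though not in FPKM. It was at 245, 241 and 255 normalised CPM in control and 308, 289.9 and 291 in fenofibrate. Its groups did not overlap, and it rose 1.199-fold (0.26 ± 0.04, adjusted p = 0.0023). Its paralogue Ndufa4l2, known as a target of the hypoxia factor HIF-1, had 9, 2 and 6 counts in control and 14, 10 and 11 in fenofibrate, and did not pass the filter on low counts. With no filter its log2 fold change was 1.03, with an adjusted p of 0.22.

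Of the 8 assembly factors, 3 were called, in both directions (37.5% called against 39.1% of all genes). Ndufaf3, which with Ndufaf4 binds the module that will hold the ubiquinone site, was at 9.15, 11.2 and 9.57 in control and 13.1, 13.9 and 12.6 in fenofibrate. Its groups did not overlap and it was called higher (1.32-fold, 0.40 ± 0.11, adjusted p = 0.0226), while its partner Ndufaf4 was not (-0.089 ± 0.08). The exons of Ndufaf3 overlap those of Impdh2 on the opposite strand. Ndufaf8, a partner that stabilises Ndufaf5, was called higher (1.33-fold, 0.41 ± 0.14, adjusted p = 0.0464) although its groups overlapped, at 13.5, 13.2 and 17.5 in control and 17.4, 21.6 and 19.8 in fenofibrate. Ndufaf5, which hydroxylates an arginine of Ndufs7, was itself not called (0.042 ± 0.13, reversed with library totals and on the FPKM scale).

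Ndufaf6, needed for the making of the mt-Nd1 protein, was the only nuclear gene of the set called lower. It was at 9.65, 10.7 and 9.72 in control and 8.15, 8.36 and 6.94 in fenofibrate, with no overlap (1.28-fold lower, -0.36 ± 0.12, adjusted p = 0.0473). The calls of all 3 depended on the processing. Ndufaf8 lost its call under 12 of the 16 alternatives, Ndufaf6 under 9 and Ndufaf3 under 6, and without control replicate 1, or without fenofibrate replicate 2, 0 of the 8 were called. The others were Ndufaf1, which belongs to the complex that builds the membrane arm, Ndufaf2, a relative of Ndufa12 that acts late, and Ndufaf7, a methyltransferase. None of these was called, and their values ran from -0.0051 (Ndufaf1) to 0.19 (Ndufaf7).

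Of 14 other complex I assembly factors tested, 0 were called higher and 2 lower (median -0.066, 14.3% called against 39.1% of all genes). Both that fell, Tmem126b and Tmem186, are partners of Ndufaf1 in building the membrane arm. Tmem126b was at 42.9, 38.5 and 39.2 normalised CPM in control and 31.5, 35.9 and 35.3 in fenofibrate (-0.23 ± 0.08, adjusted p = 0.0489), and Tmem186 at 33.9, 36.5 and 31.7 against 28.6, 26.6 and 29.5 (-0.27 ± 0.08, adjusted p = 0.0318). In both the groups did not overlap. Acad9 and Ecsit, which act with them, were not called.

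Among 22 genes of mitochondrial transcription, replication and RNA stability, 2 were called higher and 5 lower (median -0.053). The 31.8% called compares with 39.1% of all genes, and the 22.7% called lower with 19.5%. Polg2, the accessory subunit of the mitochondrial DNA polymerase, fell from 4.90, 4.04 and 4.21 to 2.34, 2.97 and 3.12 (-0.63 ± 0.18, adjusted p = 0.0263). Twnk, the replicative helicase, fell from 66.8, 60.9 and 63.8 to 46.5, 47.1 and 50.8 (-0.41 ± 0.06, adjusted p = 0.00203). Polrmt, the mitochondrial RNA polymerase, fell from 41.5, 34.8 and 35.4 to 29.6, 29.6 and 26.7 (-0.38 ± 0.09, adjusted p = 0.0134). The packaging and transcription factor Tfam (-0.33) and the RNA-degrading enzyme Pnpt1 (-0.30) were also called lower. The genes called higher were Trmt10c, a subunit of the enzyme that cuts the 5′ ends of mitochondrial tRNAs (0.36), and the transcription factor Tfb2m (0.27).

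Of 16 regulators of respiratory chain genes, 12 were tested, with 3 called higher and 3 lower (50.0% called against 39.1% of all genes). The coactivator Ppargc1a (PGC-1α) rose 1.45-fold, from 276, 242 and 259 normalised CPM to 389, 346 and 393 (0.54 ± 0.07, adjusted p = 0.000712). Its relative Ppargc1b fell 1.97-fold, from 10.3, 10.1 and 8.196 to 4.45, 5.60 and 4.44 (-0.98 ± 0.16, adjusted p = 0.00231). Esrra, the nuclear receptor ERRα, through which both coactivators act, fell 1.40-fold, from 682, 742 and 699 counts to 466, 470 and 576 (-0.48 ± 0.08, adjusted p = 0.00258). Hif1a (0.28) and Gabpb1 (0.22), a subunit of the ETS factor GABP, were called higher, and Yy1 (-0.21) was called lower. Nrf1 and Gabpa were not called, and Ppara, the receptor that fenofibrate activates, did not pass the filter on low counts.

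Complex I is one of several enzymes that reduce ubiquinone. Of 13 genes of the others, 10 were tested, with 4 called higher and 1 lower (median 0.13, 50.0% called against 39.1% of all genes). Etfdh, which passes electrons from fatty acid oxidation to ubiquinone, rose 1.41-fold, from 92.5, 97.9 and 85.4 to 129.7, 122 and 137 (0.50 ± 0.07, adjusted p = 0.00107). Sdhc, a membrane subunit of complex II, rose from 129, 118 and 125 to 150.4, 149.6 and 149 (0.27 ± 0.05, adjusted p = 0.00325). Prodh, which oxidises proline, fell from 40.6, 39.3 and 43.7 to 34.2, 32.4 and 37.1 (-0.25 ± 0.08, adjusted p = 0.0336). The iron-sulphur subunit Sdhb (0.23) and the flavoprotein subunit Etfa (0.19) were called higher as well. Over the 5 lists of related genes together, 22 of 64 tested were called, where 39.1% of all genes tested were. Without fenofibrate replicate 2, 14 of 65 tested were called, where 32.0% of all genes tested were.

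Since many complex I genes had values of the same sign, the windows around their transcription starts were read for motifs of regulators named above. Windows of 300 bases from RefSeq (GRCm38.p6), 250 before the start and 50 from it, were used for 40 of the 46 nuclear genes. A second one was used for 2 of them (Ndufa5 and Ndufa7), which makes 42 windows. Windows on chromosome 18, where Ndufa2 lies, were left out for all genes. A gene was counted where any of its windows held the motif. The NRF1 motif (GCGCA and GCGC with any base between them), searched like the others on both strands, was found for 22.5% of the 40 genes, against 12.1% of the 9574 tested genes with a window. The GABP (ETS) motif CCGGAAG was found for 15.0% against 21.1%, the YY1 motif AAGATGGCG in 15.0% against 3.802%, and the ERR half-site AAGGTCA in 7.5% against 3.79%. Matches of different motifs did not overlap in these windows. A palindromic NRF1 match lies on both strands, and its gene was counted once.

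Genes called higher and the other matched genes both had windows with each motif. NRF1 matched in 2 of 17 genes called higher and 7 of 23 others, GABP in 4 and 2, YY1 in 2 and 4, and ERR in 1 and 2. All 6 YY1 matches were on the coding strand, and they began between 11 and 36 bases into the transcript, counting the first base as 1. A match describes letters and is not evidence of a bound site.

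Windows are printed for 4 genes that differ in their motifs and their calls, 5′ to 3′ on the coding strand, from RefSeq (GRCm38.p6), with matches in capitals. Ndufv3 had the largest rise and no match. Ndufs3 rose and has 2 GABP matches, the first on the coding and the second on the other strand. Ndufc1 rose and Ndufs4 was not called, and each has 1 YY1 match, whose letters contain the triplet ATG.
Ndufv3, chr17:31519865-31520164, plus strand: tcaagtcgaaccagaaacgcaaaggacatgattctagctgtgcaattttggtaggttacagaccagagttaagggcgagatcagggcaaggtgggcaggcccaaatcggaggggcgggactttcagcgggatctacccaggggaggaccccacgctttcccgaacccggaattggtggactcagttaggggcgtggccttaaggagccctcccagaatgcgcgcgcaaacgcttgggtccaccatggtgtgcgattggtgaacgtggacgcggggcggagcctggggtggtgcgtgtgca
Ndufs3, chr2:90904672-90904971, minus strand: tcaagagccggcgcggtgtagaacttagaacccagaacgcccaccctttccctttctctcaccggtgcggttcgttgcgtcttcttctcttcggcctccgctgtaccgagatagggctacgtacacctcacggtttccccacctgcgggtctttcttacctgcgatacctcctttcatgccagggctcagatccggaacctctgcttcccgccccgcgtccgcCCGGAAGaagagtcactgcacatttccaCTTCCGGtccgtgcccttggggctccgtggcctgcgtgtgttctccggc
Ndufc1, chr3:51408906-51409205, minus strand: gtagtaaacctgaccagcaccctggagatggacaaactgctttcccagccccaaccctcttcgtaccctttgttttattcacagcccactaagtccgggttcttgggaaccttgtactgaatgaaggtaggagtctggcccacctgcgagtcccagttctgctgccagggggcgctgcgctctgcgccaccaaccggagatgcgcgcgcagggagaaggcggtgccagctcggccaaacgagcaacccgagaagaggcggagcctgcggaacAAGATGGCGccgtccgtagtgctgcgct
Ndufs4, chr13:114388045-114388344, minus strand: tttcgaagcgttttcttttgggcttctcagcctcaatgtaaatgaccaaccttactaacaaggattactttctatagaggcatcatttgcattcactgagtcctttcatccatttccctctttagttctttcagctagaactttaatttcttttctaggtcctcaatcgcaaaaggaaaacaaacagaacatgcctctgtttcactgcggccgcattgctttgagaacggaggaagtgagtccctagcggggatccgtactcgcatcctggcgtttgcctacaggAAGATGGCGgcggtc

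Of the called complex I genes, 12 of 25 have exons that overlap another annotated gene, and of all 53, 14 have a near-identical copy elsewhere in the annotated transcripts (at least 95% identity over at least 50% of the shorter transcript). The counts of these genes can hold reads of the overlapping gene or of the copy. Of the 25 called genes, 12 were called under all 16 alternatives. Among nuclear subunits these were Ndufb9, Ndufa3, Ndufb6, Ndufa4, Ndufs3, Ndufa7, Ndufs5, Ndufc1, Ndufv3 and Ndufb7, and among mitochondrial ones mt-Nd3 and mt-Nd5. The share of all called genes that held under all 16 is not given here. The alternatives called from 19.3% to 41.1% of all genes tested.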

How the data were processed

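For each of 6 libraries the authors deposited unnormalised gene counts beside FPKM, per the file headers. The submitters' processing notes list the build GRCm39 and the tools HISAT2 2.0.4 and StringTie 1.3.0, with no role for either. The counter, strand setting, trimming and filters are not given in the sources used here. Coordinates are given as GRCm38, since GENCODE M21 holds 99.9% of the gene IDs, 98.7% of them with identical coordinates. Gene rows in the deposited counts without a name numbered 0.

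Counts were analysed with edgeR 4.0.16 in R 4.3.3. Genes passed filterByExpr, libraries were scaled by TMM, and groups were compared with glmQLFit and glmQLFTest without covariates, with Benjamini-Hochberg adjustment over all genes tested. A gene was called at an adjusted p of 0.05. Normalised CPM are counts relative to the TMM-scaled library total. SE values belong to log2 fold changes. Levels per kilobase used the principal transcript of GENCODE M21. The fit was tested on simulated data, where most changes of 2-fold and 4-fold were recovered and most of 1.25-fold and 1.5-fold were not. In it, 11 unchanged genes were called. The simulation changed 50 genes per fold size out of 13629, a smaller part than the 39.1% called in the data. Its recovery therefore need not hold for the main fit. A gene that was not called can still have changed by a small amount. Alternatives were DESeq2 1.42.0, other scalings, no filter, a replicate block, each library left out, and limma 3.58.1 on log2(FPKM + 0.5), with 0.1 and 1 as other pseudocounts, which understates changes of low genes. At this depth a count of 0 allows up to 0.204 to 0.222 CPM (3 counts), which covers counting error only. Copies were found with blastn 2.17.0.

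Members, lists and tests were chosen with earlier results of these data known. Values per library were given for every mt-Nd gene, Ndufa4 and Ndufa4l2, each called Ndufaf gene, the genes with the highest and lowest level, up to 4 called genes per role in the main direction and 2 in the other, and up to 3 called genes of each related list. A few further genes were named after their values were seen. The values of 1 gene of the set are not reported here, and it is included in the counts and sums over groups. In the lists, 1 of 104 symbols (Coa1) had no match and Prorp was matched as 1110008L16Rik.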

Additional observations from a re-analysis of the deposited data

How the results depend on the processing

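Over the 16 alternatives, 0 of the 25 called genes reversed direction, 13 lost the call in at least 1, and 1 of the 27 uncalled genes (mt-Nd1) was called in 1. The same counts over all genes tested are not given here. Leaving out 1 library gave 16 to 22 called complex I genes (16 without control replicate 1) and 0 to 1 called assembly factors. It gave 14 to 18 called genes of the related lists (14 without fenofibrate replicate 2). In these fits 30.7% to 34.5% of all genes tested were called, against 39.1% in the main fit. The ratio of summed mitochondrial subunits was 1.13 to 1.22 with 1 library left out. Of the assembly factors, 1 was called with DESeq2, 1 without a filter and 1 with limma on FPKM without a filter. Of all genes tested, 32.6%, 19.6% and 19.3% were called in these fits. Of the mitochondrial subunits, 2 were called with limma on FPKM without a filter. With library totals the ratio of sums was 1.11 for nuclear and 1.13 for mitochondrial subunits, and for the latter it was 1.15 with upper-quartile scaling and 1.09 on FPKM. The cause was not tested. The replicate numbers are not said to pair the libraries. Deviations of same-numbered libraries correlated at 0.028, 0.013 and -0.0035 across 13629 genes, and those of differently numbered libraries at -0.024 to 0.011. Whether same-numbered libraries share a culture or a day cannot be told from these values. With the replicate block, 4540 genes in all were called, 33.3% of those tested. The block gave 20 called complex I genes (19 higher, 1 lower), 1 called assembly factor and 17 called genes of the related lists.

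Signs were reversed for 8 genes, none called in either fit. With library totals the log2 fold changes were -0.012 for Ndufa8, -0.0027 for mt-Nd2, -0.028 for Ndufs4 and -0.013 for Ndufaf5. On the FPKM scale Ndufa8 was at -0.014 and mt-Nd2 at -0.0011 with each pseudocount and without a filter. Ndufs4 was at -0.027 (pseudocount 0.1, 0.5 and no filter) and -0.026 (pseudocount 1), and Ndufaf5 at -0.020 (0.1), -0.019 (0.5 and no filter) and -0.018 (1). Over the fits with 1 library left out, values ranged from -0.085 to 0.14 for Ndufaf5, from -0.18 to 0.080 for Ndufaf1, from -0.029 to 0.13 for Ndufs7, from -0.064 to 0.041 for Ndufb8 and from -0.050 to 0.25 for Ndufaf2.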

Other observations

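The rule on protein-coding genes leaves out 5 rows with complex I names, of which 4 are processed pseudogenes. The row Ndufb1-ps, annotated on chromosome 12 from 101968090 to 101977068 (GRCm38) as a long noncoding RNA from a bidirectional promoter, had 338, 353 and 316 counts in control and 507, 459 and 483 in fenofibrate. The groups did not overlap, and it was called higher (1.45-fold, log2 fold change 0.54 ± 0.08 SE, adjusted p = 0.00218, edgeR's quasi-likelihood test), more than every protein-coding complex I gene except Ndufv3. In other mammals a gene of the name Ndufb1 encodes a small subunit of the membrane arm, and no protein-coding gene of that name is among the 53. The pseudogene Gm15920, near-identical to Ndufa12, went from 29.4 ± 1.38 to 38.3 ± 3.71 normalised CPM (SD, n = 3 each) and was called higher (0.38 ± 0.09, adjusted p = 0.0111), while Ndufa12, at 33.3 ± 3.95 and 37.7 ± 5.10, was not.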
